A study of Sus scrofa with 8 samples.

Results

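A set of 8 genes of regulated exocytosis, 4 of them encoding RAB GTPases (RAB3A, RAB3B, RAB3D and RAB27A) and 4 encoding synaptotagmins (SYT7, SYT11, SYT12 and SYT17), were followed in the right ventricle of pigs with and without pulmonary artery banding. They were chosen by name, with earlier results of the same contrast known, and each of the 8 names matched 1 of 31908 gene models in the count table. Their fold changes and adjusted p-values therefore describe the libraries and are no independent test of the choice.

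In exocytosis a vesicle is carried to its target membrane, tethered, docked and fused. RAB3 and RAB27 proteins are small GTPases that sit on secretory vesicles in their GTP-bound form and recruit effectors that tether and dock them. Synaptotagmins carry a pair of C2 domains, which in several family members bind calcium and couple its entry to SNARE-driven fusion, while other members do not bind calcium and act elsewhere in membrane traffic. In the heart regulated secretion is best known from the natriuretic peptide granules of atrial muscle.

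RNA was sequenced in bulk from the free wall of the right ventricle of 8 Yorkshire Cross pigs, 1 library from each animal. The 4 banded animals were castrated males. They were operated on as piglets, at a body weight of 6.4 ± 1.3 kg and an age of 4.5 ± 0.6 weeks, and a tape around the main pulmonary artery was tightened until systolic pressure in the right ventricle peaked at about 30 to 40 mmHg. The 4 controls were pigs of similar age and weight that were kept for 8 weeks, with the treatment given as none. The sex of the controls, a sham operation and the time from banding to tissue collection are not given in the sources used here. Batch, sex, the operation itself and any difference in age at tissue collection therefore cannot be told apart from the band. As the tissue is bulk, fewer cells of a type and less RNA per cell cannot be told apart either.

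The libraries held 31033679 to 34183338 counts. Levels below are counts per 1000000 (CPM), scaled by the trimmed mean of M-values (TMM), with the mean ± SD of the 4 animals of a group. On this scale a count of 0 allows at most 0.0843 to 0.104 CPM, the level of 3 counts in the library, with counting error alone considered. The share of counts on mitochondrially encoded genes was 30.5% in banded 3 and 35.3% to 43.9% in the other 7 libraries. The Spearman correlation of banded 3 with the other banded libraries was 0.955 to 0.961 across genes, and that among the other banded libraries was 0.969 to 0.977. Control 4 correlated with the other controls at 0.975 to 0.980, and controls 1 to 3 correlated with each other at 0.983 to 0.986.

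RAB3B and SYT17 were the members that passed the threshold, in opposite directions. RAB3B was scarcely present in control ventricles and was found in all 4 banded ventricles, while SYT17, one of the 3 most abundant synaptotagmins of the control ventricle, was far lower after banding, with a ratio of group means of 0.0916. In the edgeR quasi-likelihood fit over 13697 genes, with a threshold of 0.05 on the adjusted p, 2 of the 8 members were called, 1 higher and 1 lower. Over all genes tested 6.97% were called, 3.47% higher and 3.5% lower in banded animals. The same 2 members were those whose groups did not overlap, against 15.9% of all genes tested (7.66% with banded animals above the controls and 8.2% below). The median log2 fold change of the 8 members was 0.24, against 0.02 over all genes tested. All 8 members passed the filter on low counts, RAB3B through its banded libraries.

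**Figure D1:**
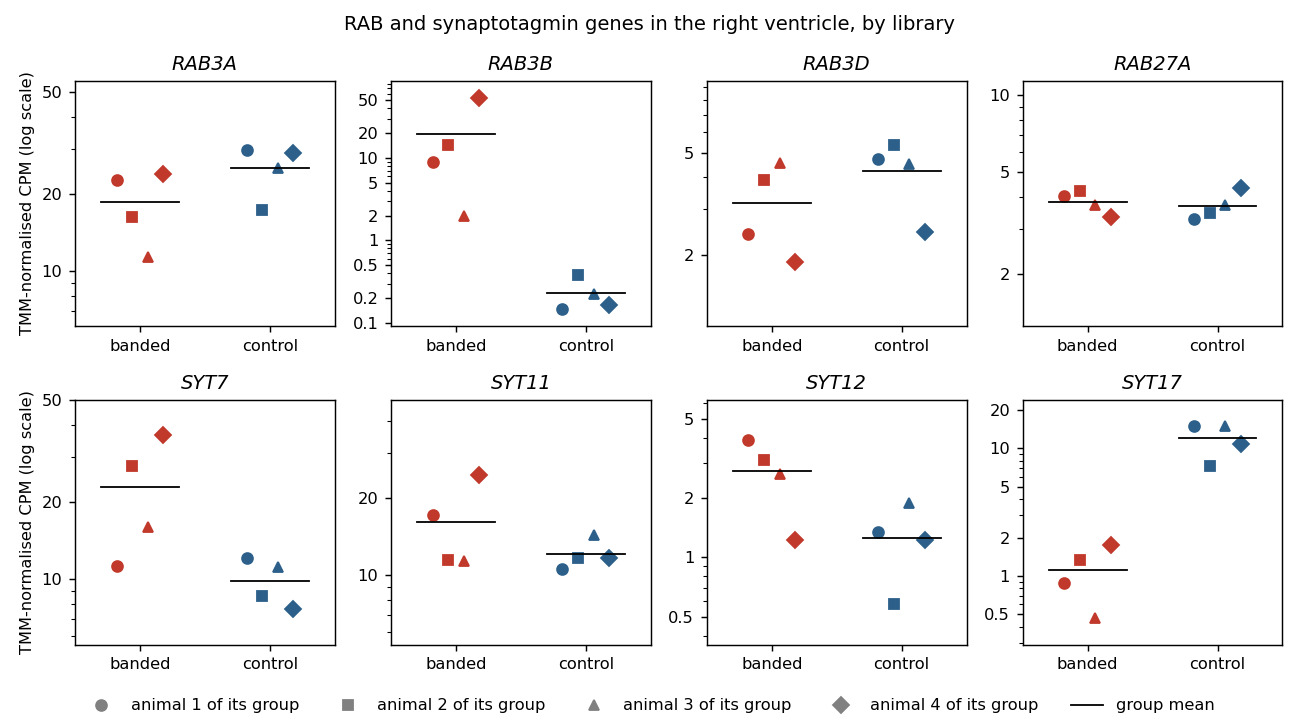
TMM-normalised CPM on a log axis for the 8 genes, with 1 point per library, a marker shape for each animal of its group and a line at the group mean, banded on the left and control on the right of each panel. The groups lie apart for RAB3B (2.01 to 53.8 CPM in banded animals, 0.147 to 0.377 CPM in controls) and for SYT17 (0.464 to 1.74 CPM in banded animals, 7.31 to 15.1 CPM in controls), and they overlap in the other 6 panels.

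RAB3B, a RAB3 paralogue best known from endocrine and epithelial cells, had 284, 504, 65 and 1547 counts in banded 1 to 4, against 5, 13, 8 and 5 counts in controls 1 to 4. On the CPM scale these were 8.97, 14.3, 2.01 and 53.8 in banded 1 to 4, and 0.147, 0.377, 0.225 and 0.165 in controls 1 to 4. Every banded library lay above every control, but the banded libraries differed among themselves by 26.8-fold, where the median gene tested differed by 1.64-fold over the banded libraries. RAB3B averaged 19.8 ± 23.2 CPM in banded animals and 0.228 ± 0.105 CPM in controls, with a log2 fold change of 6.40 ± 1.18 (SE) and an adjusted p of 0.0234. The size of this difference is imprecise, with 5 to 13 counts in the controls and a wide spread among the banded libraries. With banded 4 left out the log2 fold change became 5.18 ± 0.66 (SE, adjusted p = 0.00381). With banded 3 left out it became 6.78 ± 0.83 (SE, adjusted p = 0.00838). The call ended when any 1 control was left out, with adjusted p of 0.0618 to 0.0872, and in a test against a 1.5-fold change (adjusted p = 0.0701). In the authors' deposited table, which sets control over banded, RAB3B has a log2 fold change of -6.81 and an adjusted p of 1.38e-15.

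SYT17, known in rodents as the B/K protein, is a synaptotagmin relative that lacks a membrane-spanning segment and does not need calcium to bind membranes. It had 28, 47, 15 and 50 counts in banded 1 to 4, against 515, 252, 533 and 329 counts in controls 1 to 4. The CPM were 0.884, 1.34, 0.464 and 1.74 in banded 1 to 4, and 15.1, 7.31, 15.0 and 10.9 in controls 1 to 4. The highest banded library was thus well below the lowest control. SYT17 averaged 1.11 ± 0.55 CPM in banded animals and 12.1 ± 3.73 CPM in controls, a log2 fold change of -3.45 ± 0.38 with an adjusted p of 0.000784. It was called under all 17 alternatives, with log2 fold changes of -3.74 to -3.19 and adjusted p of 1.89e-19 to 0.00487. The SYT17 model lies on chromosome 3 (26446920 to 26525186, plus strand, Sscrofa11.1) and shares 332 bases in 3 of its 10 exon blocks with a model named CLEC19A on the same strand. The RefSeq gene SYT17 runs 23176 bases beyond the high end of the model, across the CLEC19A span. The counting command held no option that assigns a read to more than 1 gene, so the level and family rank of SYT17 rest on this model. CLEC19A had 3, 4, 2 and 11 counts in banded 1 to 4 and 30, 9, 9 and 24 counts in controls 1 to 4, and was too low to be tested. In the authors' deposited table SYT17 has 3.20 for the log2 ratio of control over banded, with an adjusted p of 2.15e-20.

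**Figure D2:**
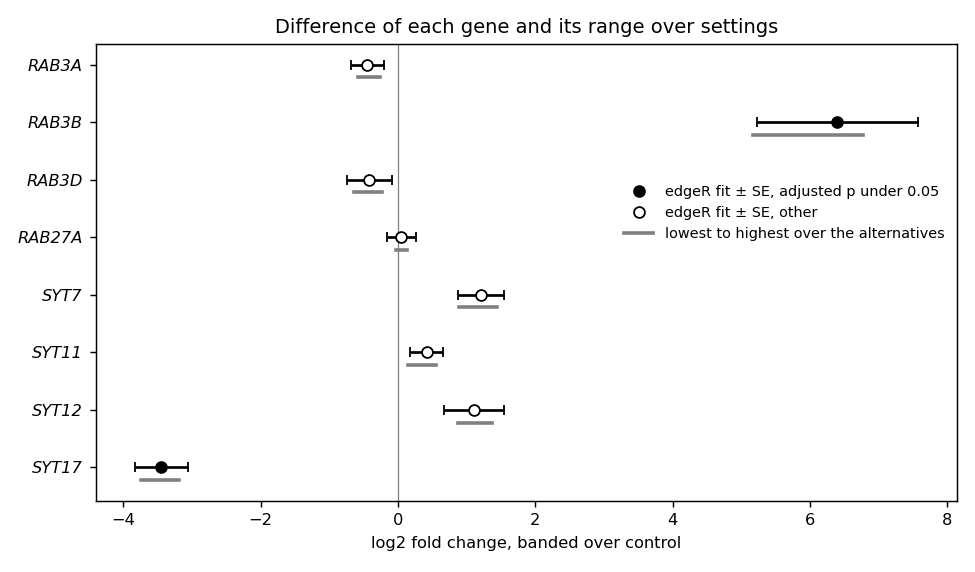
Log2 fold change of banded over control for each of the 8 genes, as the edgeR value with its SE (filled where the adjusted p was under 0.05) and, in grey below it, the lowest to highest value over the 17 alternatives. RAB3B at 6.40 and SYT17 at -3.45 lie far from 0 under every alternative, while the grey bar of RAB27A spans 0 (-0.034 to 0.13).

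The other RAB genes did not pass the threshold. RAB3A, the main RAB3 of neuronal synaptic vesicles, had 22.7, 16.3, 11.4 and 23.9 CPM in banded 1 to 4, and 29.6, 17.3, 25.2 and 28.8 CPM in controls 1 to 4. The groups overlapped, with the lowest value of all in banded 3, and the fitted log2 difference was -0.44 ± 0.24 (adjusted p = 0.300). RAB3D, the RAB3 of exocrine and mast cell granules, had 2.40, 3.90, 4.54 and 1.88 CPM in banded 1 to 4, and 4.72, 5.34, 4.50 and 2.44 CPM in controls 1 to 4, with a log2 fold change of -0.42 ± 0.33 (adjusted p = 0.482). Banded 4 was its lowest banded library and control 4 its lowest control, with no pairing between them, and the groups overlapped. RAB27A, which drives the transport of melanosomes and of the lytic granules of cytotoxic lymphocytes, varied least of the 8. It held 4.04, 4.21, 3.71 and 3.34 CPM in banded 1 to 4, and 3.29, 3.45, 3.71 and 4.33 CPM in controls 1 to 4. The groups covered almost the same range, and the log2 fold change was 0.05 ± 0.21 (adjusted p = 0.911), with a sign that turned under library size scaling and without control 1. A p that misses the threshold does not show that the levels were equal.

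Among the synaptotagmins besides SYT17, SYT7 came nearest to the threshold. SYT7, a calcium sensor of slow and of lysosomal exocytosis, had 11.2, 27.7, 16.0 and 36.6 CPM in banded 1 to 4, and 12.1, 8.61, 11.2 and 7.63 CPM in controls 1 to 4. Banded 2, 3 and 4 lay above every control and banded 1 lay within the control range. The means were 22.9 ± 11.5 CPM in banded animals and 9.88 ± 2.10 CPM in controls, with a log2 fold change of 1.21 ± 0.34 and an edgeR adjusted p of 0.0633. SYT7 was called higher by DESeq2 (adjusted p = 0.0028) and by edgeR without banded 1 (log2 fold change 1.44, adjusted p = 0.0143). In the authors' deposited table its adjusted p is 0.000864, and its log2 ratio, again control over banded, is -1.35. With SYT7, 3 of the 8 members were called by DESeq2, which called 10.3% of the genes to which it gave an adjusted p. The authors' deposited table likewise has 3 of the 8 members at an adjusted p under 0.05, against 10.6% of all genes with an adjusted p in it.

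SYT12, a synaptotagmin that does not bind calcium, was at 3.92, 3.10, 2.63 and 1.22 CPM in banded 1 to 4, and at 1.35, 0.580, 1.88 and 1.22 CPM in controls 1 to 4. Banded 1, 2 and 3 lay above every control, and banded 4 lay level with control 4. The log2 fold change was 1.11 ± 0.43 (adjusted p = 0.147). SYT11, another synaptotagmin without calcium binding that is linked to endocytosis and vesicle recycling in neurons, was at 17.1, 11.5, 11.4 and 24.6 CPM in banded 1 to 4, and at 10.5, 11.7, 14.4 and 11.6 CPM in controls 1 to 4. Banded 1 and banded 4 lay above the controls and the other banded libraries within their range, with a log2 fold change of 0.42 ± 0.24 (adjusted p = 0.322). Of the SYT11 model, 300 bases lie within the RefSeq span of GON4L.

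The members did not order the banded animals alike. Banded 4 was the highest banded library for RAB3A, RAB3B, SYT7, SYT11 and SYT17, and the lowest for RAB3D, RAB27A and SYT12. Banded 3, the library with the lowest mitochondrial share, was the lowest banded library for RAB3A, RAB3B, SYT11 and SYT17 and the highest for RAB3D. RAB3B and SYT17 put the banded animals in the same order, with banded 4 first, then banded 2, banded 1 and banded 3. Across the 8 libraries their log2 CPM had a Pearson correlation of -0.77, and the correlation of their deviations from the group means was 0.70. RAB3B and SYT7 had a correlation of 0.84 across the 8 libraries and of 0.62 as deviations, and RAB3A and RAB3D of -0.38 and -0.80. These are descriptions over 8 libraries among 28 pairs of members, and the values of a library share its depth and scaling. In 6 of the 8 members the highest over the lowest library was larger among the banded animals than among the controls. Over all genes tested the median of this ratio was also larger in banded animals, at 1.64 against 1.43 in controls.

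Set per length of the gene model (CPM per kb), the summed RAB3 levels of the groups overlapped. The sum over RAB3A, RAB3B, RAB3C and RAB3D was 19.1 ± 6.09 CPM per kb in banded animals and 21.0 ± 2.94 CPM per kb in controls, with banded 3 (12.7) below and banded 4 (27.3 CPM per kb) above the control range of 17.1 to 24.3 CPM per kb. Without dividing by length the order of the means turned, at 41.6 ± 26.6 CPM in banded animals and 29.9 ± 4.88 CPM in controls. On that scale only banded 4 (79.8 CPM) lay above the control range of 23.2 to 34.9 CPM. Banded 3 (17.9 CPM) lay below that range, and banded 1 and banded 2 lay within it. RAB3A came first in both groups, at 11.9 ± 3.76 CPM per kb in banded animals and 16.2 ± 3.60 CPM per kb in controls. RAB3B came next in banded animals at 3.62 ± 4.25 CPM per kb, level with RAB3D at 3.52 ± 1.38 CPM per kb. In controls RAB3D held 4.71 ± 1.39 CPM per kb and RAB3B 0.0418 ± 0.0192 CPM per kb, near RAB3C at 0.0212 ± 0.0203 CPM per kb. The share of RAB3B in the family was 8.70%, 15.1%, 2.90% and 36.1% in banded 1 to 4, and 0.110% to 0.403% in controls. The share of RAB3A was 77.2%, 60.0%, 57.5% and 56.2% in banded 1 to 4, and 78.2%, 65.0%, 76.2% and 87.1% in controls 1 to 4, and these ranges overlap. Without dividing by length, the share of RAB3B was 36.6% ± 24.0 in banded animals and 0.830% ± 0.546 in controls. The RAB3D model has 902 bases, and the RefSeq gene runs 2711 bases further at its low end, which is the 3′ end on its minus strand. The RAB3B model has 5458 bases, and the RefSeq gene starts 8074 bases before it. RAB3 levels per length rest on these models.

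Of the RAB27 genes, RAB27A took 87.1% ± 4.49 of the pair in banded animals and 87.1% ± 3.73 in controls. RAB27B, its paralogue, was at 0.214 ± 0.0878 CPM per kb in banded animals and 0.202 ± 0.0577 CPM per kb in controls.

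**Figure D3:**
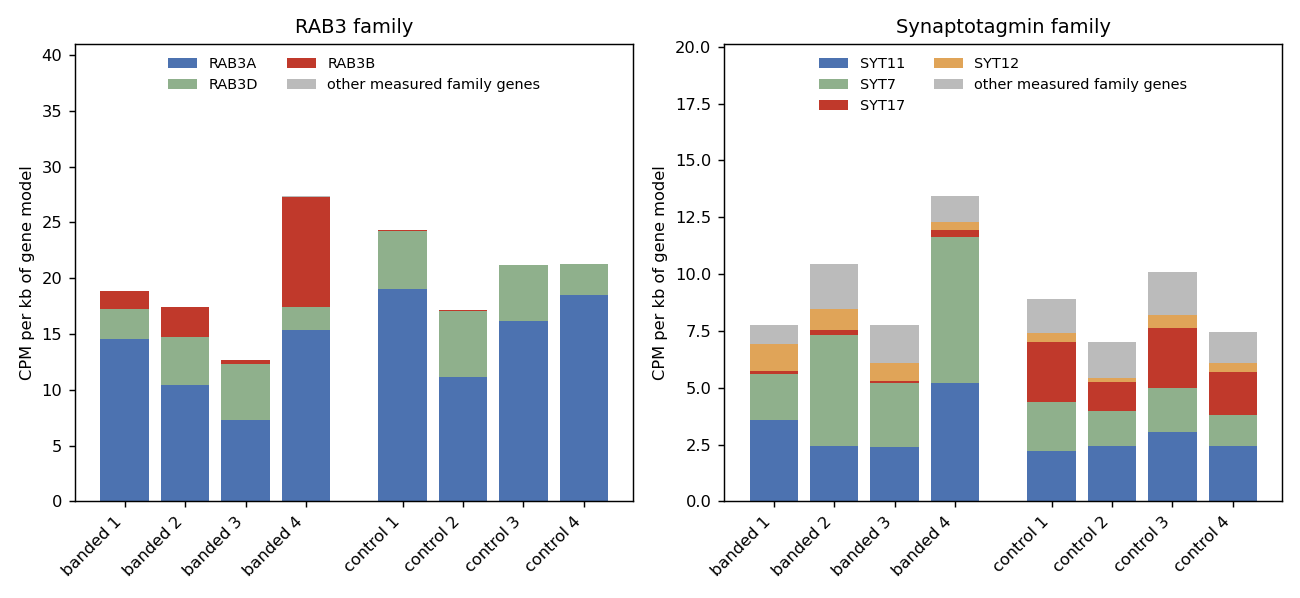
Stacked bars of CPM per kb of gene model for the RAB3 family (left) and the synaptotagmin family (right) in each of the 8 libraries, banded first, with the members in colour and the remaining measured family genes in grey. RAB3B adds 2.90% to 36.1% of the RAB3 bar in banded animals and at most 0.403% in controls, and SYT17 makes up 1.89% ± 0.58 of the synaptotagmin bar in banded animals and 24.9% ± 4.82 in controls.

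The synaptotagmin family was measured through 16 gene models, of which 9 passed the filter and SYT4 and SYT5 had 0 counts in all libraries. Its sum was 9.84 ± 2.69 CPM per kb in banded animals and 8.37 ± 1.40 CPM per kb in controls. In banded animals the order was SYT7 at 4.04 ± 2.02, SYT11 at 3.40 ± 1.32, SYT12 at 0.808 ± 0.337 and SYT2 at 0.606 ± 0.215 CPM per kb. SYT7 and SYT11 did not differ beyond their spread there, nor did SYT12 and SYT2. In controls the order was SYT11 at 2.54 ± 0.35, SYT17 at 2.12 ± 0.66 and SYT7 at 1.74 ± 0.37 CPM per kb, neighbours within their spread, followed by SYT2 at 0.584 ± 0.168 CPM per kb. SYT17 stood seventh of the 16 in banded animals at 0.194 ± 0.097 CPM per kb, among SYT9 (0.253 ± 0.167), SYT3 (0.207 ± 0.086) and SYT1 (0.157 ± 0.159 CPM per kb). Its share of the family was 1.89% ± 0.58 in banded animals and 24.9% ± 4.82 in controls, and that of SYT7 was 39.3% ± 10.5 in banded animals and 20.8% ± 2.56 in controls. SYT1, the fast calcium sensor of neuronal synapses, and the further tested relatives SYT2, SYT3, SYT9 and SYT14 were not called, with edgeR adjusted p of 0.125 to 0.939. Of the 8 members RAB3A had the highest level per length, above 85.4% of the genes tested, and SYT12 the lowest, above 19.1%.

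The wider machinery of exocytosis was read from 7 lists without the members. Of 157 genes 107 were tested, and 9 of them were called, 5 higher and 4 lower, or 8.41% against 6.97% of all genes. Groups did not overlap for 17 of the 107, against 15.9% of all genes, and the median log2 fold change was -0.03. DESeq2 called 11 of the 124 list genes to which it gave an adjusted p, against 10.3% of all such genes. None of the 18 tested relatives and regulators of RAB3 and RAB27, which include the exchange factors, GTPase-activating proteins and prenylation factors, was called by edgeR (2 at an unadjusted p under 0.05) or by DESeq2. Of their 14 tested effectors edgeR called none (2 at an unadjusted p under 0.05), and DESeq2 and limma-voom each called RIMS2, a scaffold that binds RAB3 at release sites. RIMS2, named here after its value was seen, was at 0.461 ± 0.031 CPM in banded animals and 0.0806 ± 0.0620 CPM in controls (edgeR adjusted p = 0.0696). Its controls held 0 to 0.140 CPM, near the level of 3 counts, and it passed the filter on low counts through its banded libraries. None of 14 tested exocyst genes, which tether vesicles to the plasma membrane, was called by edgeR (0 at an unadjusted p under 0.05) or DESeq2. The most abundant per length were RAB11B, a RAB of recycling endosomes, among the relatives (170 ± 22.3 CPM in banded animals and 145 ± 16.3 CPM in controls, adjusted p = 0.341) and SYN1, a synapsin, among the effectors (42.5 ± 9.52 CPM in banded animals and 53.2 ± 7.41 CPM in controls, adjusted p = 0.285). For the exocyst list it was RALB, a GTPase that binds the complex (78.9 ± 7.55 CPM in banded animals and 82.8 ± 6.36 CPM in controls, adjusted p = 0.773).

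In the SNARE list 4 genes were called higher and 1 lower of 34 tested, with a median log2 fold change of 0.09. STX12, a syntaxin of recycling endosomes, rose to 68.2, 70.8, 73.9 and 71.3 CPM in banded 1 to 4, against 38.1, 40.6, 40.8 and 50.6 CPM in controls 1 to 4. Its log2 fold change was 0.74 ± 0.12 (adjusted p = 0.00587), and the groups did not overlap. YKT6, a lipid-anchored SNARE of the Golgi, rose to 83.4 ± 13.4 CPM in banded animals, against 53.8 ± 4.36 CPM in controls (log2 fold change 0.63 ± 0.14, adjusted p = 0.0213). It missed the threshold when control 1 (adjusted p = 0.0632), control 2 (0.0776) or control 3 (0.0799) was left out. STX6, a syntaxin of the trans-Golgi network, was higher at 47.3 ± 14.7 CPM in banded animals, against 27.8 ± 2.03 CPM in controls (adjusted p = 0.0397). That call ended without any 1 control (0.0827 to 0.122), without banded 2 (0.0601), banded 3 (0.0659) or banded 4 (0.0661), and under limma-voom (0.0744) or library size scaling (0.0858).

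STXBP5L, or tomosyn-2, an inhibitor of SNARE assembly, had 45, 25, 107 and 20 counts in banded 1 to 4, against 0, 2, 4 and 0 counts in controls 1 to 4. Like RAB3B, it passed the filter on low counts through its banded libraries. The log2 fold change of 5.01 ± 0.90 (adjusted p = 0.00895) rests on few control counts and is imprecise, and it ranged from 4.31 to 6.01 over the alternatives. Here banded 3 was the highest library, which was the lowest banded library for RAB3B. The gene called lower was STXBP6, or amisyn, a syntaxin-binding protein, at 9.43 ± 2.20 CPM in banded animals and 15.0 ± 1.51 CPM in controls (adjusted p = 0.0447). It is named here after its value was seen. The most abundant SNARE per length, VAMP2, a vesicle SNARE, was at 48.0 ± 14.7 CPM in banded animals and 44.9 ± 2.60 CPM in controls (adjusted p = 0.806). SNAP25, the neuronal plasma membrane SNARE, had 0 counts in all libraries.

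**Figure D4:**
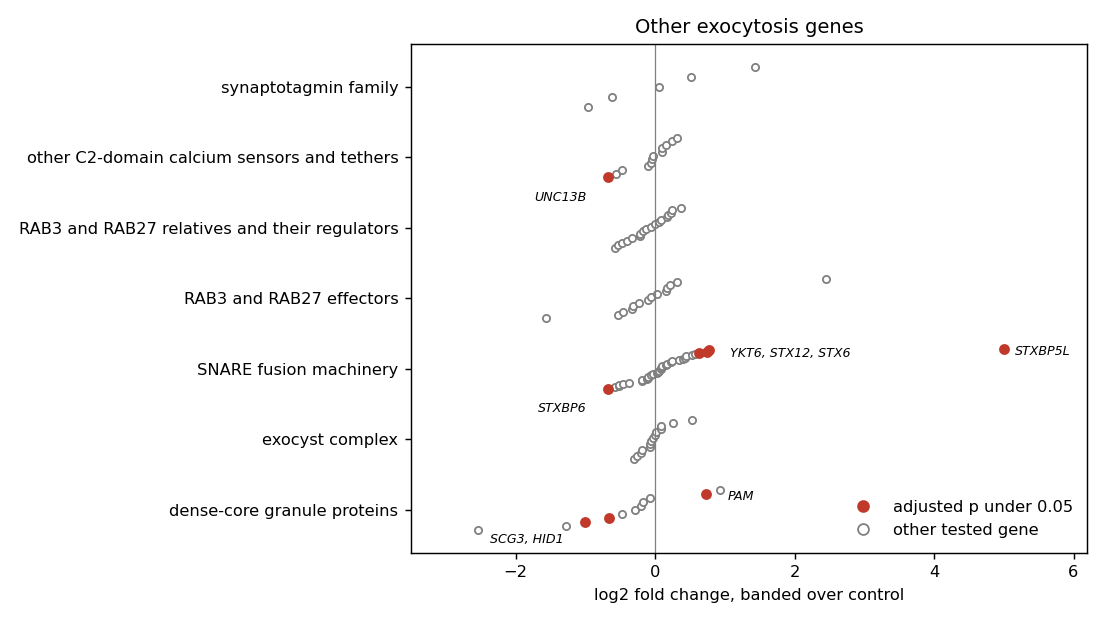
Log2 fold change of banded over control for every tested gene of the 7 exocytosis lists, 1 point per gene, filled and named where the edgeR adjusted p was under 0.05. Filled points are found in the SNARE list (4 higher, 1 lower), the dense-core granule list (1 higher, 2 lower) and among the other C2-domain proteins (1 lower), and the lists of RAB relatives, effectors and the exocyst have none.

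Among proteins of dense-core granules, 1 gene was called higher and 2 lower of 11 tested, with a median log2 fold change of -0.29. DESeq2 called these 3 and CHGA, or chromogranin A, the granin of endocrine granules, named here after its values were seen. CHGA was at 0.632, 0.0853, 0 and 0.521 CPM in banded 1 to 4, and at 2.67, 2.23, 1.12 and 1.12 CPM in controls 1 to 4 (edgeR adjusted p = 0.0894), and the groups did not overlap. With at most 3 counts in banded 2 and banded 3, CHGA passed the filter on low counts through its controls. PAM, the peptide-amidating enzyme that is a major membrane protein of atrial granules, rose to 452, 509, 581 and 448 CPM in banded 1 to 4, against 333, 279, 287 and 297 CPM in controls 1 to 4. The groups did not overlap, and the log2 fold change was 0.73 ± 0.14 (adjusted p = 0.0116). HID1, which acts in granule maturation, fell to 15.0 ± 2.58 CPM in banded animals, against 23.7 ± 2.03 CPM in controls (log2 fold change -0.66 ± 0.15, adjusted p = 0.0249). It missed the threshold when control 1 (adjusted p = 0.0668), control 2 (0.0851), control 3 (0.0732) or banded 2 (0.0543) was left out. SCG3, a granin-binding protein of granule membranes, was lower at 2.12 ± 0.47 CPM in banded animals, against 4.24 ± 0.57 CPM in controls (adjusted p = 0.0341). Its call ended without any 1 library other than banded 3 (0.0581 to 0.116). Of the remaining C2-domain proteins, 1 of 12 tested was called. UNC13B, a Munc13 protein that primes vesicles for fusion, fell to 14.3 ± 1.77 CPM in banded animals, against 22.8 ± 1.92 CPM in controls (log2 fold change -0.68 ± 0.14, adjusted p = 0.0149), and lost its call without control 1 (0.0571). The most abundant of that list, the phospholipase PLA2G4A, was at 26.9 ± 5.88 CPM in banded animals and 39.9 ± 12.5 CPM in controls (adjusted p = 0.160).

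Markers of the cells that such genes are known from were read beside the members. The heart muscle markers were abundant, with a summed level of 32426 to 42122 CPM in banded animals and 24391 to 32596 CPM in controls over 7 genes, of which MYL2, the ventricular light chain, was called higher (17465 ± 2543 CPM in banded animals and 9264 ± 1353 CPM in controls, adjusted p = 0.0113). The 7 did not move one way, with 3 positive and 4 negative log2 fold changes and a median of -0.19. Of the 7, edgeR gave 5 an unadjusted p under 0.05, and the groups did not overlap for 5. DESeq2 called MYL2 and ACTN2 higher and RYR2 and TNNI3 lower. Of 13 neuron and nerve ending markers 3 were tested and edgeR called none (2 at an unadjusted p under 0.05), while DESeq2 called STMN2. Their sum was 3.79 to 5.77 CPM in banded animals and 2.70 to 4.16 CPM in controls, and DBH and CHAT had 0 counts in all libraries. Schwann cell markers summed to 146 to 202 CPM in banded animals and 128 to 159 CPM in controls, with none of 8 called by edgeR (3 at an unadjusted p under 0.05) and 1 by DESeq2. That sum is led by NCAM1, and 7 of the 8 log2 fold changes were negative.

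Epithelial and mesothelial markers moved with the groups. Their sum was 43.0 to 144 CPM in banded animals and 8.68 to 26.9 CPM in controls over 7 genes with a model, of which 4 were tested and KRT18, a keratin, was called higher (2.18 ± 1.86 CPM in banded animals and 0.166 ± 0.108 CPM in controls, adjusted p = 0.0103). KRT18 had 2, 3, 9 and 8 counts in controls 1 to 4 and passed the filter on low counts through its banded libraries. KRT8, its partner keratin, was at 48.6, 109, 62.5 and 32.5 CPM in banded 1 to 4, and at 9.06, 17.0, 1.69 and 2.15 CPM in controls 1 to 4 (edgeR adjusted p = 0.0787). The groups did not overlap, and KRT8 was called higher by DESeq2 (adjusted p = 0.00222), by limma-voom (0.00712) and by edgeR without robust estimation (0.0242). KRT8 was the largest part of the epithelial sum in all banded libraries and in controls 1 and 2, and WT1 in controls 3 and 4. The highest library was banded 2 for both keratins and banded 4 for RAB3B. Bulk tissue does not show which cells held the keratin RNA. The part of epithelial or mesothelial cells in the level of RAB3B was not tested. Macrophage markers summed to 703 to 1338 CPM in banded animals and 456 to 718 CPM in controls, with a positive log2 fold change in all 9 genes. edgeR called none of the 9 (7 at an unadjusted p under 0.05), DESeq2 called 5 and limma-voom 4. Their part in the level of SYT7 was not tested.

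The remaining marker sums overlapped between the groups, as did those above other than the epithelial and mesothelial sum. Mast cell markers, of which 4 of 8 had a model, summed to 31.4 to 51.6 CPM in banded animals and 29.1 to 43.0 CPM in controls. Cytotoxic lymphocyte markers summed to 13.1 to 30.6 CPM in banded animals and 23.2 to 26.0 CPM in controls. The sums were 654 to 825 CPM in banded animals and 751 to 860 CPM in controls for endothelium. Platelet markers summed to 2.68 to 4.04 CPM in banded animals and 1.77 to 3.12 CPM in controls. edgeR called none of the 3 mast cell, 8 lymphocyte, 7 endothelial and 1 platelet genes tested (1, in endothelium, at an unadjusted p under 0.05), and DESeq2 called 1, in endothelium. Adipocyte markers summed to 416 to 1131 CPM in banded animals and 509 to 647 CPM in controls, with none of 5 called by edgeR (0 at an unadjusted p under 0.05) or DESeq2. Banded 1 stood apart for ADIPOQ, an adipocyte hormone named here after its values were seen, with 199, 3.64, 2.60 and 11.7 CPM in banded 1 to 4, and 8.12 to 23.5 CPM in controls. Banded 1 was also the lowest banded library for SYT7 and the highest for SYT12, and the part of adipose tissue in either was not tested.

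The members lie on 5 chromosomes. RAB3B is on chromosome 6 (160202562 to 160255632, plus strand), SYT11 on chromosome 4 (94139347 to 94163050, minus strand) and RAB27A on chromosome 1 (116533024 to 116605199, plus strand). Chromosome 2 carries SYT12 (5410624 to 5433929, minus strand), SYT7 (9947925 to 10012521, plus strand), RAB3A (59603117 to 59609767, plus strand) and RAB3D (70026181 to 70035653, minus strand). The nearest tested genes on either side were looked up after the members' values were seen. Those beside RAB3B were KTI12 (log2 fold change 0.60 ± 0.22, adjusted p = 0.119) and NRDC (-0.29 ± 0.12, adjusted p = 0.160). Those beside SYT17 were ITPRIPL2 (-0.36 ± 0.41, adjusted p = 0.639) and SMG1 (-0.58 ± 0.19, adjusted p = 0.0848). Of the 16 neighbours of the 8 members 2 were called, against 6.97% of all genes tested. They were RHOD beside SYT12 (log2 fold change 1.73, adjusted p = 0.00971) and MPV17L2 beside RAB3A (0.92, adjusted p = 0.0157), both higher.

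The genes most like each member were taken as those with the highest Pearson correlation of log2 CPM over the 8 libraries, among 11321 genes with a symbol and a mean of at least 1 CPM. For RAB3B they were CDIN1 (0.974) and ANKDD1B (0.969), of which ANKDD1B was higher at 2.04 ± 1.02 CPM in banded animals, against 0.603 ± 0.097 CPM in controls (adjusted p = 0.0355). For SYT17 they were DACH1 (0.983), which fell to 11.9 ± 1.41 CPM in banded animals, against 22.4 ± 1.26 CPM in controls (adjusted p = 0.00277), and CLASP2 (0.980). For SYT7 they were DKK3 (0.979), at 133 ± 76.6 CPM in banded animals and 40.3 ± 5.01 CPM in controls (adjusted p = 0.0379), and SLC6A8 (0.973). The pairs were TMED4 (0.984) and SNCG (0.976) for SYT11, and SMARCD1 (0.973) and ATAT1 (0.961) for SYT12. They were SPATA6L (0.954) and ERAP2 (0.954) for RAB3A, SFT2D3 (0.985) and PCDH7 (0.970) for RAB3D, and NINJ1 (0.969) and GBP1 (0.950) for RAB27A. Correlation over the 8 libraries includes the difference between the groups. Genes chosen this way for RAB3B, SYT17 or SYT7 thus tend to share that difference, and their adjusted p are no independent result. With deviations from the group means in place of the log2 CPM, 3 of the 16 names remained. A correlation this high is reached by some gene for every member when so many are compared over 8 libraries, and it describes these libraries only.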

How the data were processed

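The authors' count table was made with featureCounts 1.6.2, per the file headers. Read pairs needed both ends mapped and a mapping quality of at least 10, the strand setting was 2, and the annotation was Ensembl release 106 on Sscrofa11.1. The deposited values are raw whole counts. The submitters' processing notes also name DESeq2, HISAT2, Trimmomatic and Subread, whose settings are not given in the sources used here. In the other deposited table the authors give, per gene, the log2 fold change (control over banded) and its error, p-values, a test score and a signal averaged over libraries.

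Members were matched through the gene name column of that table. Other symbols came from a gene name table (15021 models), the authors' deposited table (713) and human one-to-one names (474). Genes were kept by filterByExpr (minimum count 10, minimum total 15), scaled by TMM and compared by the robust quasi-likelihood F test of edgeR 4.0.16 under R 4.3.3. The test was two-sided, and p-values were adjusted by Benjamini-Hochberg over all 13697 genes. The SE is the size of the log2 fold change over the square root of F. Labels give no batch or pairing, and each library is a separate animal.

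The members and the 7 exocytosis and 10 marker lists were chosen with earlier results of these data known. Named were the members, up to 4 called genes (2 for marker lists) and the most abundant gene of each list, the family relatives and the 2 most similar genes per member. Not every marker gene so named is described. Alternatives were DESeq2 1.42.0, limma-voom (limma 3.58.1) with quality weights, DESeq2 size factors, library size alone, no filter, 50 counts in 4 libraries, no robust estimation, no mitochondrial-genome genes, a test against a 1.5-fold change and leaving out each library. No sequence is printed.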

Additional observations from a re-analysis of the deposited data

Results flagged for a closer look

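In 5 of 66 groups of 4 libraries screened (the members and the genes named from the lists, each in both groups), 1 library stood apart, its gap to the nearest library taking more than Dixon's critical share of the group's range. Chance flags about 1 in 20 groups. None of the 8 members was among them. KRT18 in banded animals had a gap of 0.848 of its range, with 4.95 CPM in banded 2, where banded 1, 3 and 4 held 1.01 to 1.61 CPM. RAB11B in controls had a gap of 0.864, with 169 CPM in control 1 and 135 to 139 CPM in the other controls. NCAM1 in banded animals had a gap of 0.893 (163 CPM in banded 2, 117 to 122 CPM in the others), LPL in controls one of 0.934 (452 CPM in control 4, 326 to 334 CPM in the others) and GP9 in banded animals one of 0.855 (3.73 CPM in banded 1, 2.63 to 2.79 CPM in the others).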

How the results depend on the processing

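The edgeR fit called 954 genes, DESeq2 called 1629 and the test against a 1.5-fold change 148, and leaving out 1 library gave 399 to 962 (399, 415 and 409 without control 1, 2 or 3). With library size alone, 303 genes were higher and 508 lower, so that 37.4% of calls were higher, against 49.8% with TMM. The median log2 fold change shifted by -0.10. Of the 8 members 2 were called, 1 (SYT17) in the test against a 1.5-fold change, and 1 to 3 with 1 library left out. Of the exocytosis lists 9 genes were called, 1 in the test against a 1.5-fold change, and 3 to 8 with 1 library left out (3, 4 and 4 without control 1, 2 or 3). The log2 fold change of RAB27A turned to -0.034 with library size alone and ranged from -0.0018 (without control 1) to 0.13 with 1 library left out, the cause was not tested, and the other 7 members kept their sign under all 17 alternatives. SYT17 kept its call under all 17, RAB3B lost it under 5 and SYT7 gained one under 2. Without control 4 the edgeR fit called 786 genes, and without 1 banded library it called 725 to 962. The part of the smaller number of libraries in these changes was not tested. No paired analysis was possible because the labels give no replicate numbers that the groups share.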
